A study of Mus musculus with 11 samples.

Results

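Matrix metalloproteinases Mmp3 (MMP3 in the tables, gene ID 17392) and Mmp9 (MMP9, gene ID 17395) are 2 of the 248 genes that the NanoString mouse Inflammation panel counted in these corneas, and are the only matrix metalloproteinase genes on it. They were taken by symbol, with earlier results of these data known. All 11 samples came from female C57BL/6 mice under desiccating stress, a dry eye model that combines dry moving air with scopolamine in the drinking water to stop tear secretion. During 5 days of stress the mice received eye drops of vehicle (3 samples), of pan at 10 µM, an agonist of the neurotrophin receptors TrkA, TrkB and TrkC (4 samples), or of C1 at 10 µM, an agonist of TrkC (4 samples). The labels give the tissue as cornea and the cells as corneal epithelia, and do not say how many corneas made up a sample. One age label reads 3 months for every sample, whereas a second reads 2 to 3 months for vehicle and pan replicates 1 to 3 but 22 to 24 months for pan replicate 4 and all 4 C1 samples. The study's methods give its mice an age of some weeks, which goes against the label of 22 to 24 months and is also below that of 3 months. Which label is right is not known. Non-stressed corneas were not analysed here, so the values compare treatments within stressed corneas.

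Matrix metalloproteinases are zinc enzymes that are secreted as inactive precursors and cut extracellular matrix and junction proteins. Mmp3, or stromelysin 1, degrades proteoglycans, laminin and fibronectin and can activate the precursor of Mmp9. Mmp9, or gelatinase B, cuts gelatin and type IV collagen, and in dry eye it is known for the loss of tight junctions in the corneal epithelium. Transcription of both genes is known to respond to interleukin 1 and tumor necrosis factor through MAP kinases, the AP-1 factors Fos and Jun, and NF-kB.

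The 250 bases before the annotated start of Mmp3 are shown because the AP-1 genes are among those compared below. The sequence is RefSeq's, on build GRCm38.p6 at chr9:7445572-7445821, plus strand, with capitals for the letters TGANTCA (the core AP-1 motif, N being any base) and TATAAA.
Mmp3: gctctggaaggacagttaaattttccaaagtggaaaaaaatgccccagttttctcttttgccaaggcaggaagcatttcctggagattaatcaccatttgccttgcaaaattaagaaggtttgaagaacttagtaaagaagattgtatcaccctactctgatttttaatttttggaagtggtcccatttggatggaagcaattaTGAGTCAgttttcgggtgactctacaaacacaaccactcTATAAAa
The AP-1 letters stand 46 to 40 bases, and TATAAA 7 to 2 bases, before the annotated start. Searched on both strands, TGANTCA occurred in 7.81% and TATAAA in 13.6% of 32851 promoter windows of 300 bases. A match describes the letters and is no evidence of binding. No promoter was printed for Mmp9.

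The deposited values are normalized counts on the log2 scale, that is probe counts divided by the sample's housekeeping level. Summed over the panel, probe counts ran from 91955 to 133098 in vehicle, from 64156 to 646446 in pan and from 165828 to 525997 in C1 samples, so C1 treatment coincided with both a higher depth and the second age label. The panel holds no keratin or other defining marker of corneal epithelium, so that label could be set only against markers of other cells. Between groups of bulk samples, fewer cells of a type and less RNA per cell cannot be told apart.

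Mmp3 was well detected in every sample and was highest with C1 and lowest with pan, but the groups overlapped and no difference passed the threshold. Vehicle samples held 402, 403 and 561 normalized counts, from 175 to 341 probe counts each. Pan samples held 380, 427, 423 and 334 normalized counts, from 117 to 1062 probe counts each. C1 samples held 603, 902, 388 and 683 normalized counts, from 438 to 1582 probe counts each. The pan samples lay close together, whereas C1 replicate 2 was the highest of all samples and C1 replicate 3 lay below all 3 vehicle samples. The vehicle mean was 456 ± 91.2 normalized counts (SD, n = 3), the pan mean 391 ± 43.5 (SD, n = 4) and the C1 mean 644 ± 213 (SD, n = 4). The SD of the log2 levels was 0.28 with vehicle, 0.17 with pan and 0.51 with C1.

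**Figure D1:**
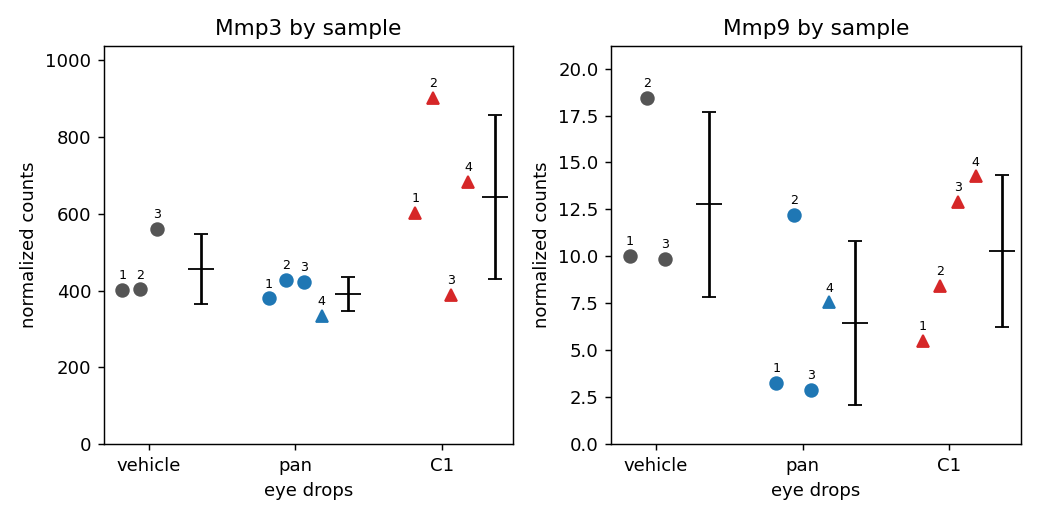
Normalized counts of Mmp3 (left) and Mmp9 (right) in each sample, by eye drops; numbers are replicates, triangles are samples with the second age label of 22 to 24 months, and bars are the mean ± SD. For Mmp3, 3 of 4 C1 samples stand above all others while C1 replicate 3 stands at 388 normalized counts, and Mmp9 stays under 20 normalized counts in all 11 samples.

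Whether either agonist altered Mmp3 was asked by comparison with vehicle. With pan, the log2 difference was -0.21 (standard error 0.23, 95% interval -0.74 to 0.33), with an adjusted p of 0.774 from limma. Of the pan samples, 2 of 4 were below the lowest vehicle sample and 0 were above the highest. The exact permutation test gave p = 0.314, and 3 samples against 4 cannot give a p below 0.0286. In this comparison 2.02% of the 248 genes passed an adjusted p of 0.05. With C1, Mmp3 had a log2 difference of 0.45 (standard error 0.30, 95% interval -0.26 to 1.16), with an adjusted p of 0.623 from limma and an exact permutation p of 0.200. The highest vehicle sample was exceeded by 3 of 4 C1 samples. Here 0.0% of the genes passed the adjusted threshold in limma, against 26 genes (10.5%) at an unadjusted p under 0.05. An ordinary linear model without moderation also called 0 genes, whereas other settings called up to 4. Without C1 replicate 3 the log2 difference was 0.68, still with an adjusted p of 0.423 from limma.

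The agonists were also compared directly, at one dose and one time. Mean Mmp3 was higher in C1 corneas than in pan corneas, with a log2 difference of 0.66 (standard error 0.27, 95% interval 0.06 to 1.27), a 1.58-fold difference of the mean log2 levels with an interval from 1.04 to 2.41. Its p was 0.0357 before and 0.277 after adjustment in limma, so it did not pass. At an unadjusted p under 0.05 stood 15.3% of all genes, 13.7% higher and 1.61% lower in C1, and Mmp3 ranked 32 of 248 by p. The median of all genes was itself 0.23 higher with C1 on the log2 scale. The highest pan sample was exceeded by 3 of 4 C1 samples (exact permutation test, p = 0.0857, where 4 against 4 allow 0.0286). Adjusted over the 6 pairs of gene and comparison tested in this way, the permutation p was 0.300. Leaving out C1 replicate 3 gave a log2 difference of 0.89 and leaving out C1 replicate 2 gave 0.48.

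**Figure D2:**
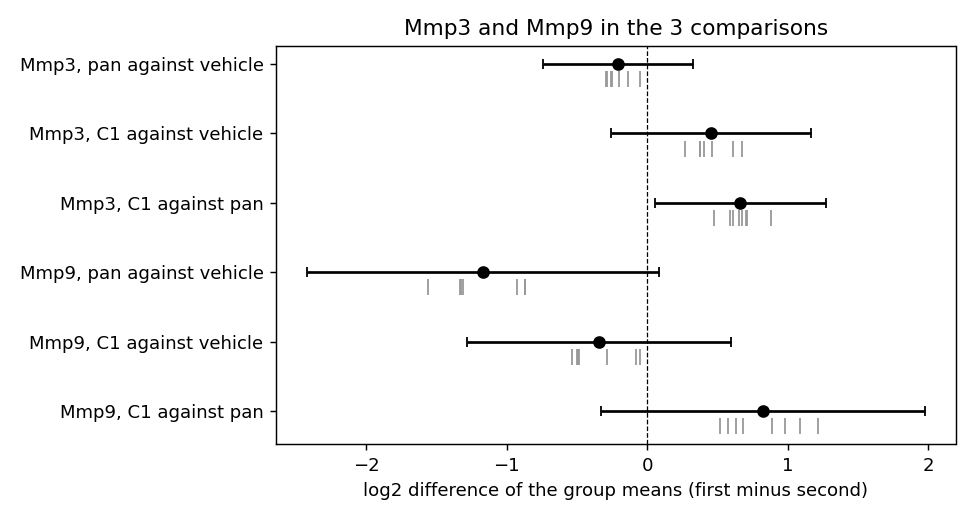
Log2 difference of the group means for Mmp3 and Mmp9 in the 3 comparisons (horizontal axis, first group minus second), with 95% intervals from limma; grey ticks are the differences with 1 sample left out. Of the 6 intervals, only that of Mmp3 in C1 against pan lies above 0, from 0.06 to 1.27, and its p did not pass after adjustment.

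Depth and age label were set beside this difference, because both differ between the groups. Pan replicate 4 carries the same second label as C1 corneas, 22 to 24 months, and had the highest total count. Its Mmp3 level of 334 normalized counts was the lowest of all samples, and all 4 C1 samples were above it, by a mean log2 difference of 0.88. This rests on 1 pan sample, and a fit with the second label as a covariate takes its difference of C1 from pan from that sample alone. In a joint fit of the 3 groups adjusted for the log2 total count, the difference of C1 from pan was 0.75 (standard error 0.30). Among samples with the label of 2 to 3 months, pan replicates 1 to 3 differed from vehicle by -0.14 on the log2 scale.

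The summed markers of macrophages, and those of stromal fibroblasts, lay higher in all 4 C1 samples than in all 4 pan samples, a description with no test of the sums. The summed level of the 7 macrophage markers ran from 132 to 214 normalized counts in pan, from 243 to 339 in C1 and from 208 to 335 in vehicle samples. None of the 7 passed adjustment in any comparison, and 0.403% of all genes passed between C1 and pan. At an unadjusted p under 0.05, 3 of 7 were higher with C1 than with pan, against 13.7% of all genes. These were the complement genes C1qa (log2 difference 0.77) and C1qb (0.96) and the mannose receptor gene Mrc1 (0.86). The median log2 difference of the 7 was 0.66, against 0.23 for all genes. Of the 7, 3 were low genes (mean log2 level under 5), and the median of all low genes in C1 against pan was 0.45. C3ar1, a low gene that encodes a complement receptor, had log2 differences from vehicle of -1.18 with pan and -0.95 with C1 (adjusted p = 0.0955 and 0.418 from limma). All 4 pan samples lay below vehicle. The 4 markers of stromal fibroblasts summed to 84.0 to 142 normalized counts in pan, 144 to 221 in C1 and 140 to 166 in vehicle samples. Of these 4, C1s1, a complement protease gene, had the highest mean level in every group. It had an unadjusted p under 0.05 in C1 against pan (log2 difference 0.78), where C1ra, C7 and Twist2 had 0.27, 0.05 and 0.69. C7, also with an unadjusted p under 0.05, had -1.32 in pan against vehicle. C7 and Twist2 were low genes, and 0 of 4 passed adjustment. The part of either cell type in the Mmp3 difference was not tested.

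Mmp9 was at the level of the low genes of the panel in all groups, so its group differences rest on few counts. Vehicle samples held 10.0, 18.4 and 9.87 normalized counts, from 5, 8 and 6 probe counts. Pan samples held 3.25, 12.2, 2.90 and 7.55 normalized counts, from 1, 5, 1 and 24 probe counts. C1 samples held 5.50, 8.41, 12.9 and 14.3 normalized counts, from 4, 12, 25 and 33 probe counts. The groups overlapped, with vehicle replicate 2 highest and pan replicates 1 and 3 lowest. Those 2 pan samples were under the limit of 3 counts that a count of 0 allows, which is 9.74 and 8.69 normalized counts there. The median over the 117 low genes of the same sample was between 5.80 and 13.8 normalized counts, and in all 11 samples it lay inside the 95% counting interval of Mmp9. The low genes were picked by their mean level in these same samples and include Mmp9. This places Mmp9 among the faint genes and cannot decide whether it was detected.

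**Figure D3:**
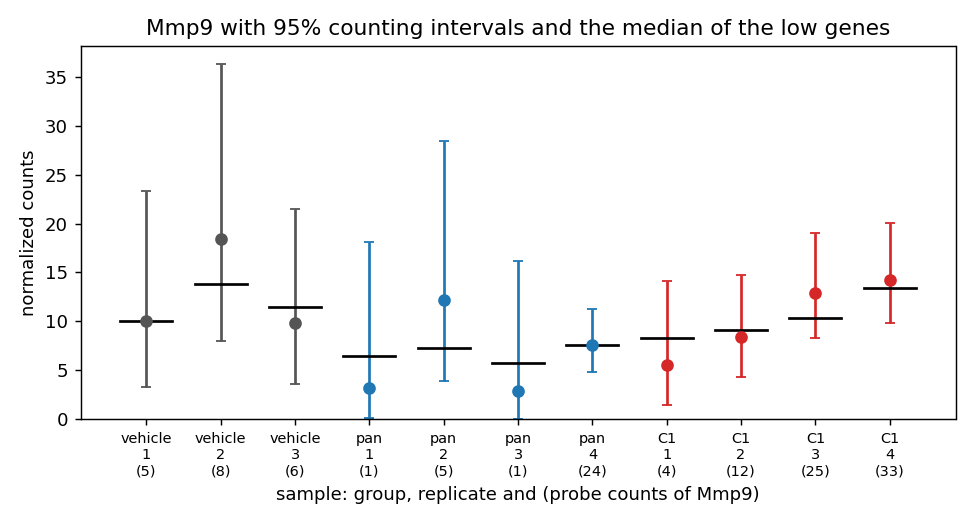
Mmp9 in each sample as normalized counts (points, with exact Poisson 95% intervals) and the median of the 117 low genes in that sample (black bars); probe counts are in parentheses. Every interval spans the median of the low genes, and the widest intervals belong to samples with 1 to 8 probe counts.

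The mean level of Mmp9 was 12.8 ± 4.91 normalized counts in vehicle (SD, n = 3), 6.47 ± 4.37 in pan (SD, n = 4) and 10.3 ± 4.04 in C1 samples (SD, n = 4). The log2 difference of pan from vehicle was -1.17 (standard error 0.54, 95% interval -2.42 to 0.08), with an adjusted p of 0.447 from limma and an exact permutation p of 0.171. The 117 low genes, of which Mmp9 is one, had a median log2 difference of -0.64 in that comparison, against -0.07 for the other 131 genes. The difference of C1 from vehicle was -0.35 (standard error 0.40, 95% interval -1.29 to 0.59), with an adjusted p of 0.787 from limma and an exact permutation p of 0.514. Between C1 and pan it was 0.82 (standard error 0.51, 95% interval -0.33 to 1.98), with an adjusted p of 0.462 from limma and an exact permutation p of 0.200, while the median of the low genes was 0.45. After the mean of the low genes was subtracted, Mmp9 lay at the floor of 1 in 9 of 11 samples. The difference of pan from vehicle was then -0.22, and that between C1 and pan turned to -0.13.

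The order of the groups differed between the genes, with Mmp3 highest in C1 and Mmp9 highest in vehicle, and no neighbours in either order differed beyond their spread. Across the 11 samples, the log2 values of both genes had a Pearson r of 0.117 (permutation p = 0.739, adjusted p = 0.739) and a Spearman rho of 0.127 (permutation p = 0.713, adjusted p = 0.739). Without pan replicates 1 and 3, the 2 samples farthest from the Mmp9 median, r was -0.230, and with each group centred on its own mean it was -0.209. Since Mmp9 rested on few probe counts, from 1 to 33 in a sample, this relation cannot show whether the genes vary together.

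Genes that act upstream of both metalloproteinases were compared in the same fits. Of the cytokine genes known to induce them and their receptors, 0 of 7 passed adjustment in any comparison. Of all genes, 2.02% passed with pan, 0.0% with C1 and 0.403% between C1 and pan. The median of the 7 was 0.20 with pan and 0.36 with C1, against -0.20 and -0.02 for all genes. Il1a, encoding interleukin 1 alpha, had log2 differences from vehicle of 1.26 with pan and 0.57 with C1 (adjusted p = 0.239 and 0.436 from limma). It had an unadjusted p under 0.05 with both, as did 12.5% of all genes with pan (2.42% higher, 10.1% lower). Tnf, encoding tumor necrosis factor, had 1.17 and 1.30, with standard errors of 0.69 and 0.56, and also did not pass. Il1r1, the signaling receptor for interleukin 1, had -0.05 and 0.36, and Il1rap had 0.20 and 0.08. The low genes Il1b, Il6 and Il17a had -0.64, 0.23 and -0.48 with pan and 0.06, 0.60 and -0.49 with C1.
Of the 12 MAP kinase and AP-1 genes, 0 passed adjustment, against 2.02% of all genes with pan, 0.0% with C1 and 0.403% between C1 and pan. Their medians were -0.07 with pan and 0.01 with C1. Jun, a subunit of AP-1, had a log2 difference of 0.60 with C1 (standard error 0.19, adjusted p = 0.370 from limma), with all 4 C1 samples above vehicle, and was the one member with an unadjusted p under 0.05, where 5.24% of all genes were higher. The 3 NF-kB subunit genes Nfkb1, Rela and Relb had log2 differences of -0.07, 0.30 and 0.21 with pan and of -0.02, -0.18 and -0.01 with C1, none past the threshold.

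Among 4 genes that restrain these inducers, 1 rose with pan, where 2.02% of all genes passed in either direction. Tnfaip3, which encodes an enzyme that limits NF-kB signaling, had a log2 difference of 1.86 (adjusted p = 0.00846 from limma), and did not pass without vehicle replicate 2 or vehicle replicate 3 (1.88 and 1.76, adjusted p = 0.0566 and 0.0536). With C1 the log2 difference of Tnfaip3 from vehicle was 0.86 (adjusted p = 0.452 from limma), with all C1 samples above vehicle. In C1 against pan it was -1.002 (adjusted p = 0.260 from limma). The study chose this gene on the same samples. Il1rn, the antagonist of interleukin 1, had 0.35 with pan and 0.06 with C1, and Nr3c1, the glucocorticoid receptor, had -0.25 and -0.14. Of 5 genes that attract neutrophils, cells that carry Mmp9 in their granules, 1 passed with pan, against the same 2.02% of all genes. Cxcl1 rose with pan by a log2 difference of 1.86 (adjusted p = 0.0181 from limma). Cxcl1 passed with 1 sample left out only without vehicle replicate 1 or pan replicate 3 (both 1.99), and otherwise had 1.59 (without vehicle replicate 2), 2.01 (without vehicle replicate 3), 1.80 (without pan replicate 1), 1.86 (without pan replicate 2) or 1.79 (without pan replicate 4), with adjusted p of 0.0536 to 0.0705 from limma. With C1, Cxcl1 had 1.31 (standard error 0.79, adjusted p = 0.567 from limma), with all C1 samples above vehicle. Cxcl2 had 1.61 with pan (adjusted p = 0.0753 from limma) and -1.05 in C1 against pan. Cxcl3 and Csf3 had -0.67 and -0.86 with pan, where the median of the 5 attractants was 0.06. Cxcl5 had 0.60 in C1 against vehicle and Cxcl3 had 0.89 in C1 against pan, neither past adjustment, and all 5 attractants were low genes. The neutrophil markers Cxcr1, Cxcr2 and Itgb2 were low genes too. With pan they had log2 differences of -1.21, -0.45 and -0.41 and adjusted p above the threshold, where the median of all low genes was -0.64. The sum of these markers was 24.0 to 42.8 normalized counts in vehicle, 13.0 to 39.0 in pan and 20.6 to 47.5 in C1 samples. Both T cell markers were low genes and did not pass adjustment. Cd4 had log2 differences of -1.68 with pan and -0.25 with C1 from vehicle and of 1.44 in C1 against pan, whereas Cd40lg had 1.14, 0.93 and -0.21.

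**Figure D4:**
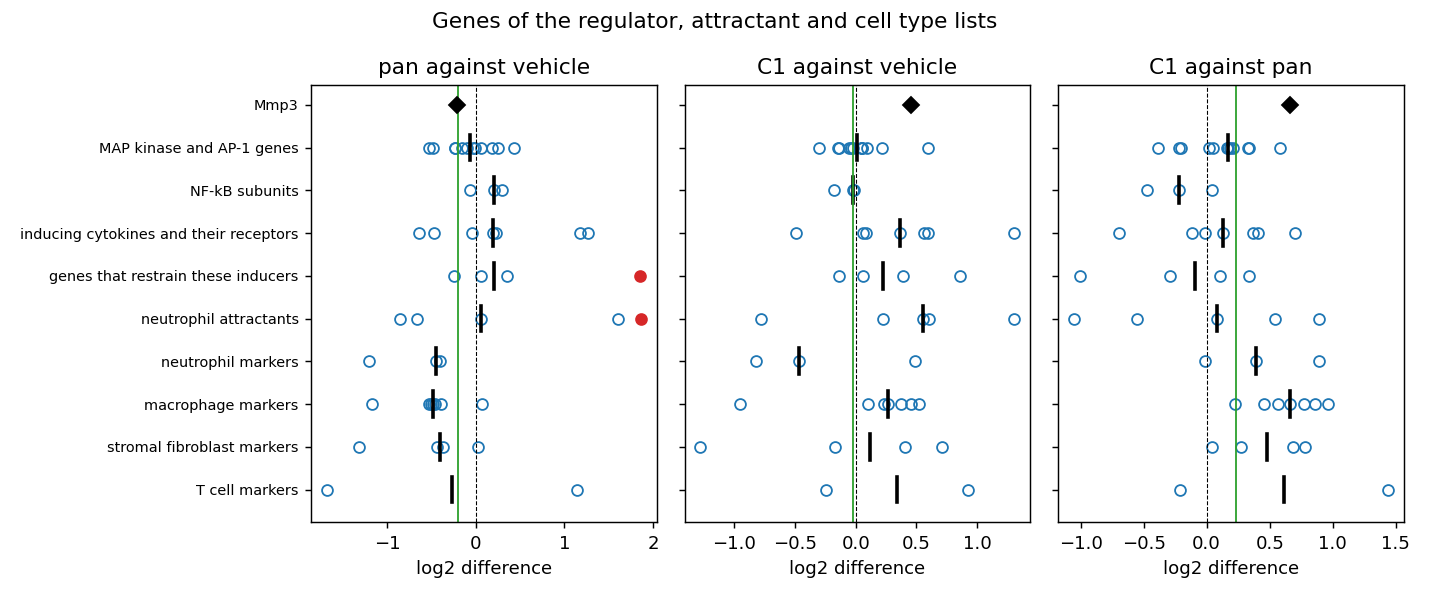
Log2 differences of the genes in each list (circles; filled red where the adjusted p was under 0.05) and of Mmp3 (diamond) in the 3 comparisons, with list medians as black bars and the median of all genes as a green line. Only Tnfaip3 and Cxcl1 are filled, both with pan, and all 7 macrophage markers lie above 0 in C1 against pan.

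Among the 130 other genes that are not low genes, those whose pattern over the 11 samples was most like Mmp3 were Tcf4, Il15 and Mapk8. Likeness was the root mean square difference of log2 values after each gene was centred on its mean, and it was 0.26, 0.31 and 0.34 for these genes against a median of 0.47 for all candidates. Tcf4, which encodes a basic helix-loop-helix transcription factor, had mean log2 levels of 8.25 with vehicle, 8.08 with pan and 8.47 with C1. Like Mmp3, it was lower in C1 replicate 3 (8.26) than in the other C1 samples (8.44 to 8.60). Il15, a cytokine gene, had mean log2 levels of 6.11, 5.74 and 6.53, and Mapk8, encoding the stress kinase JNK1, had 9.52, 9.57 and 9.74.
For Mmp9 the nearest were Map3k9, Bcl6 and Map2k6, at 0.40, 0.42 and 0.43 against a median of 0.81. Map3k9, which encodes a kinase upstream of JNK, had log2 values of 5.02 and 4.70 in pan replicates 1 and 3 and of 6.50 and 6.59 in the other pan samples. Pan replicates 1 and 3, where Mmp9 had 1 count each, had the lowest total counts of all samples, 64156 and 81855, and the part of depth in this likeness was not tested. Mmp3 lay at 0.87 from Mmp9.

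**Figure D5:**
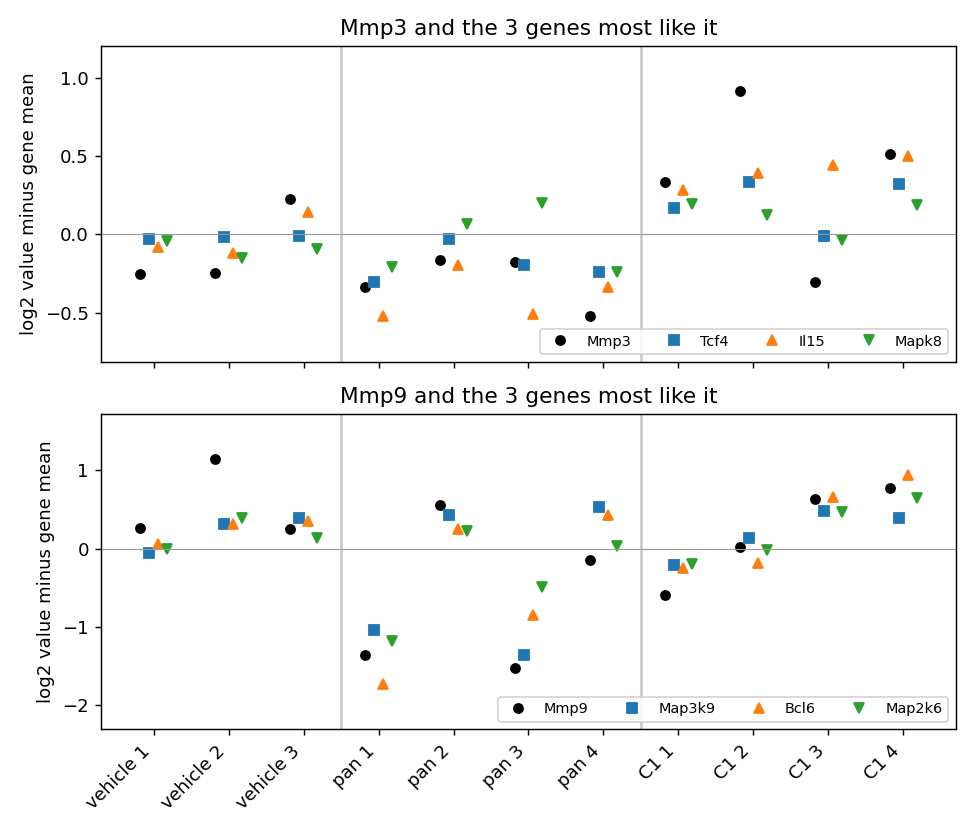
Log2 values minus each gene's mean in the 11 samples for Mmp3 (top) and Mmp9 (bottom) with the 3 genes most like each; grey lines separate the groups. Tcf4, like Mmp3, drops in C1 replicate 3, and the genes with Mmp9 are all low in pan replicates 1 and 3.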

How the data were processed

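RNA of 11 corneal samples was counted by the authors with the NanoString nCounter mouse Inflammation panel, in which bar-coded probes are counted without amplification. The authors divided the counts of each sample by the geometric mean of its housekeeping probes in ROSALIND and deposited log2 values of these normalized counts in 2 tables, each holding vehicle beside one agonist. Their columns of mean level, fold change and p-value were not used. No aligner or genome build applies to probe counts, and none is named. Samples that failed the authors' quality control were left out before deposit. The housekeeping genes are not in the tables used here, so that step was not repeated.

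The vehicle columns were identical in both tables, so all groups were taken to share one scale. In every sample, dividing the normalized counts by the sample's smallest step gave whole numbers to within 0.01, and that step was read as 1 probe count. Gene IDs were matched to RefSeq symbols for 247 of 248 genes. Each comparison was fitted to the log2 values of all 248 genes, with no covariate, filter or pseudocount, by lmFit and eBayes of limma 3.58.1 under R 4.3.3. Benjamini-Hochberg adjustment ran over all genes, with a threshold of 0.05. Exact two-sided permutation tests of the difference in mean log2 value were run in Python 3.11.15 with numpy 2.4.6, scipy 1.17.1 and pandas 2.3.3, and figures were drawn with matplotlib 3.10.9. Intervals on counts are exact Poisson intervals at a confidence level of 95% and cover counting error only. The limma script was tested on simulated data. Genes with a mean log2 value under 5 are called low genes. The 2 genes, the gene lists, the markers and the rule for similar patterns (the 3 genes with the smallest root mean square difference) were chosen with earlier results of these data known. List genes with an unadjusted p under 0.05 are named with their values, and some others beside them. Alternatives covered the variance model, scaling, low values, covariates, the replicate number and each left-out sample. Total-count scaling was added after seeing the data. Elk1, whose row carries the gene ID of another gene, was left out of its list. The study calls the samples biological replicates. Whether each held 1 animal or several is not given in the sources used here for this assay, so p-values measure the spread between these samples.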

Additional observations from a re-analysis of the deposited data

How the results depend on the processing

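Under 14 alternatives and with any single sample left out, Mmp3 kept its direction and stayed above an adjusted p of 0.05 in limma. Its log2 difference ranged over the alternatives from -0.25 to -0.14 (pan against vehicle), from 0.38 to 0.75 (C1 against vehicle) and from 0.52 to 0.88 (C1 against pan). The 0.75 and 0.88 came with age label as a covariate, where the adjustment of C1 rests on pan replicate 4 alone. With 1 sample left out the Mmp3 difference ranged from -0.29 to -0.05, from 0.27 to 0.68 and from 0.48 to 0.89. Median centring lowered every difference of C1 from pan by 0.14 on the log2 scale.
Mmp9 also never passed, in 12 alternatives. Its difference ran over them from -1.33 to -0.22 (low genes subtracted) in pan against vehicle, with -0.48 under a pseudocount of 10. It ran from -0.98 (age label as a covariate, again resting on pan replicate 4) to -0.15 (voom weights) in C1 against vehicle and from -0.13 to 0.84 in C1 against pan. With 1 sample left out its difference ran from -1.56 to -0.87 (pan against vehicle), from -0.54 to -0.05 (C1 against vehicle) and from 0.52 to 1.21 (C1 against pan). It turned to -0.13 in C1 against pan with the mean of the low genes subtracted, where it was at the floor in 9 of 11 samples. It had no value without the low genes or with a floor of 20 normalized counts, which is above all its values. The Pearson r of both genes turned to -0.209 within groups and to -0.230 without the 2 farthest samples.
The count of genes past the threshold depended on the setting. The cause was not tested. From 5 with pan against vehicle, it was 2 without moderation or with the floor, 1 without the low genes, 3 with the low genes subtracted or with total-count scaling (added after seeing the data), 8 with depth and 9 with age label as a covariate. It ran from 1 (without vehicle replicate 2 or 3) to 7 (without vehicle replicate 1) with 1 sample left out, and was 2 without pan replicate 1 or 4 and 3 without pan replicate 2 or 3. From 0 with C1 against vehicle, it was 2 with a mean-dependent prior variance and 4 without the low genes, and 0 with any sample left out. From 1 with C1 against pan, it was 2 with the floor or the low genes subtracted and 0 with a mean-dependent or robust prior variance, median centring, a pseudocount of 10, one fit of 3 groups, either covariate, voom weights or total-count scaling. It ran from 0 to 1 with 1 sample left out, and stayed at 1 only without pan replicate 2 or 4.
With the replicate number as a block, the Mmp3 differences were -0.14, 0.40 and 0.66, those of Mmp9 were -1.33, -0.54 and 0.82, and the counts were 5, 0 and 1. Deviations of same-numbered samples correlated by -0.054 to 0.570 and the labels give no shared origin, so the numbers were not taken as pairs.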
